A study of Homo sapiens with 12 samples.

Results

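The 40 genes described here encode the chaperones, folding enzymes, degradation factors, stress sensors and protein-conducting machinery of the endoplasmic reticulum (ER). They were taken from a list of symbols and matched through GENCODE release 44 to the Ensembl identifiers of the deposited tables. All 40 were found among the 58721 genes listed. The rule for choosing them uses symbols only, but they and the further lists were chosen with earlier results of these data known. They fall into 9 roles: the Hsp70 and Hsp90 chaperones with their partners (HSPA5, HSP90B1, HYOU1, DNAJB9, DNAJB11, DNAJC3, DNAJC10, SDF2L1), protein disulfide isomerases (P4HB, PDIA3, PDIA4, PDIA6), lectin chaperones (CALR, CANX), secreted ER stress proteins (MANF, CRELD2), ER-associated degradation (SEL1L, SYVN1, HERPUD1, EDEM1, DERL1, DERL2, DERL3), the stress sensors with XBP1 (XBP1, ATF6, ERN1, EIF2AK3), the Sec61 translocon (SEC61A1, SEC61B, SEC61G, SEC62, SEC63), the TRAP complex (SSR1, SSR2, SSR3, SSR4) and signal peptidase (SPCS1, SPCS2, SPCS3, SEC11A). The libraries came from HepG2, an established line derived from a human liver tumour, transfected transiently with siControl, the control siRNA, or with siIGF2BP3, which targets the message of the RNA-binding protein IGF2BP3. At 2 days after transfection, by the labels, cells received cycloheximide at 100 µg/mL for 4 min, which holds ribosomes on their messages. The labels repeat the RPF protocol for the Input samples, so whether Input cells were treated is uncertain. Each condition has 3 Input libraries, which measure transcripts, and 3 libraries of ribosome-protected fragments (RPF, 28 to 30 nt), which count the pieces of message covered by ribosomes. The comparisons ask how loss of IGF2BP3 changed the transcripts, the footprints and the footprints per transcript of these genes.

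Secreted and membrane proteins enter the ER through the Sec61 channel, lose their signal peptide to signal peptidase and fold with the help of the Hsp70 protein HSPA5 (BiP), the Hsp90 protein HSP90B1 (GRP94), the lectin chaperones and the disulfide isomerases. Chains that fail to fold are drawn back to the cytosol and degraded. When unfolded chains build up, the sensors IRE1 (encoded by ERN1), PERK (encoded by EIF2AK3) and ATF6 start the unfolded protein response, in which ATF6 and spliced XBP1 bind ER stress elements in the promoters of chaperone genes. Hepatocytes, which HepG2 cells resemble, secrete much of the protein of blood plasma and carry an extensive ER.

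Libraries held between 11219750 and 31510601 counts. IGF2BP3, the targeted gene, had 133, 129 and 127 counts scaled to library size (CPM) in siControl Input, where siIGF2BP3 gave 103, 97.9 and 105 CPM, and its footprints were at 74.6, 78.1 and 77.7 CPM against 21.9, 28.0 and 25.2 CPM. Both levels were lower in each knockdown library, and the log2 estimates were -0.39 ± 0.05 (SE) in Input and -1.59 ± 0.08 in RPF (adjusted p = 1.06e-05 and 0.000301). Some RPF libraries stood apart from the usual replicate spread. The siControl RPF replicates 2 and 3 differed by less than sampling noise over all genes (mean chi-square per gene 0.941). Their value was 1.06 over protein-coding genes and 1.37 over 39 of the ER genes. They were counted as 1 sample in means and SDs, but as separate libraries in the main tests. The siIGF2BP3 RPF replicate 1 differed from replicates 2 and 3 by 19.9 and 21.5 over all genes, against 1.15 between the latter, which were kept as separate samples. Over 39 of the ER genes the values for replicate 1 were 47.5 and 55.2, against 3.08. Results on footprints are therefore given with and without that library. As a check of the cell type, 12 hepatocyte markers summed to between 55579 and 61146 CPM in the Input libraries, with ALB and AFP at no less than 8278 and 7229 CPM in any library. Of 12 markers of other cell types, DCN had no count in any library, and PTPRC and COL3A1 stayed at or below 0.0234 and 0.0413 CPM. The highest of these 12 were ACTA2 (32.3 to 58.6 CPM over the 12 libraries), CD68 (19.7 to 27.9), PDGFRB (5.74 to 9.38) and CD14 (1.76 to 5.60), and their sum lay between 64.8 and 72.8 CPM in Input and between 90.5 and 104 CPM in RPF.

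Because several of these genes share regulatory elements, the elements themselves are shown first. The RefSeq promoter table (GRCh38.p14), which runs from 250 bases before to 50 bases after each start, held an entry for 36 of the 40 genes. DERL1, DERL3, PDIA3 and SPCS1 had no entry. The ER stress element (ERSE), searched on both strands as CCAAT and CCACG with 9 free bases between them, was present in 7 of the 36 promoters (19.4%), against 0.0769% of all 35116 promoters in the table. Each window below reads 5′ to 3′ on the strand that holds the motif, with the fixed letters of the motif in capitals.
HSPA5 (chr9:125241386-125241414, minus strand): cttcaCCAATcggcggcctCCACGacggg
HSP90B1 (chr12:103930211-103930239, plus strand): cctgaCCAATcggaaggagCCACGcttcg
HSP90B1 (chr12:103930316-103930344, minus strand): acccaCCAATcgcgccgcaCCACGcaccc
CALR (chr19:12938379-12938407, minus strand): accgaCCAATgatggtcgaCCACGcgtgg
CANX (chr5:179698773-179698801, plus strand): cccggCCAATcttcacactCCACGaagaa
PDIA6 (chr2:10812848-10812876, minus strand): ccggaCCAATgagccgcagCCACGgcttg
CRELD2 (chr22:49918549-49918577, minus strand): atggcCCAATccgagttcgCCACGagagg
XBP1 (chr22:28800598-28800626, minus strand): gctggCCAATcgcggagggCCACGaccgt

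The shorter second element (ERSE-II), searched on both strands as ATTGG, any 1 base and CCACG, was in 3 of the 36 promoters (8.33%), against 0.0541% of all promoters. HYOU1 held it at 2 places, and none of these 3 genes held the longer element.
HYOU1 (chr11:119057269-119057289, plus strand): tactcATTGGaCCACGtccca
HYOU1 (chr11:119057375-119057395, plus strand): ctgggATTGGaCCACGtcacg
HERPUD1 (chr16:56932020-56932040, plus strand): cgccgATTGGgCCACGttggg
SDF2L1 (chr22:21642109-21642129, minus strand): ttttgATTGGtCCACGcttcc

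For HSPA5, the best known target of this element, the 250 bases upstream of the RefSeq start are given in full on the strand of the gene, with the fixed letters of its ERSE in capitals.
HSPA5 upstream region (chr9:125241344-125241593, minus strand): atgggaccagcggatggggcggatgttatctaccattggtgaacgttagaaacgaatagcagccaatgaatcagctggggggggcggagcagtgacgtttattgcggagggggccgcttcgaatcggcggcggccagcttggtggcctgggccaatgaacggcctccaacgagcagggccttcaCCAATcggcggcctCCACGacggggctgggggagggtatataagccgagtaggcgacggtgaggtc

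The core of the unfolded protein response element, TGACGTG on both strands, was in 6 of the 36 promoters (16.7%; DNAJC10, HYOU1, SEC61A1, SEC62, SSR3 and SSR4), against 1.97% of all promoters. In HYOU1 it overlaps the second of the ERSE-II windows. The ER stress element windows of HSP90B1, CANX, PDIA6 and CRELD2 lie inside the deposited gene span, where the table's start is not the outermost one. A match describes these letters in these windows and is no evidence of binding in HepG2.

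Transcripts of several ER chaperones fell after siIGF2BP3. Of the 39 genes tested, 7 fell and 0 rose in Input (edgeR's quasi-likelihood test, adjusted p under 0.05 over 14759 genes), against a background of 5.96% of all genes called, 1.9% lower and 4.05% higher. With only genes of a mean of at least 5 CPM, again 7 fell and 0 rose, and 945 of 11020 genes were called. The fallers, the same under both filters, were HSPA5, HSP90B1 and DNAJB9 of the Hsp70 and Hsp90 system, PDIA3 and PDIA4 of the disulfide isomerases, CALR of the lectin chaperones, and SPCS3 of signal peptidase. The median log2 fold change of the 39 was -0.09, against 0.00 over all genes tested. Among the positive estimates HERPUD1 came nearest to the threshold (0.19 ± 0.07, adjusted p = 0.0878). DERL3, encoding a derlin, had a summed count of 0.25 over the 12 libraries and was not tested.

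HSPA5 (ENSG00000044574, chr9:125234853-125241330 in hg38, minus strand), the main Hsp70 chaperone of the ER lumen, measured 1240, 1381 and 1328 CPM in control Input libraries, against 1104, 1139 and 1087 CPM in knockdown Input libraries. All 3 knockdown libraries lay below all control libraries, and the log2 estimate was -0.29 ± 0.05 (SE), a 1.23-fold fall with an adjusted p of 0.000311. CALR (ENSG00000179218, chr19:12938578-12944489, plus strand), which encodes the lectin chaperone calreticulin, measured 1297, 1453 and 1471 CPM under siControl, against 1154, 1180 and 1176 CPM under siIGF2BP3. These groups did not overlap either (-0.31 ± 0.05, adjusted p = 0.00021, a 1.24-fold fall). PDIA3 (ENSG00000167004, chr15:43746392-43773279, plus strand), the disulfide isomerase that works with the lectin chaperones, was at 609, 648 and 640 CPM against 550, 555 and 545 CPM. The knockdown libraries were again all lower (-0.25 ± 0.04, adjusted p = 0.000816). HSPA5, CALR and PDIA3 were called under each of the 13 alternative settings of this comparison, the loss of any Input library included.

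The other 4 calls were each lost when certain single Input libraries were left out. HSP90B1, the ER Hsp90, measured 2587, 2765 and 2819 CPM under siControl, against 2554, 2522 and 2417 CPM under siIGF2BP3, so that the groups were separate but close (-0.17 ± 0.05, adjusted p = 0.0276). PDIA4, a disulfide isomerase found with HSPA5 in chaperone complexes, was at 637, 693 and 678 CPM against 599, 632 and 616 CPM (-0.17 ± 0.05, adjusted p = 0.0257). DNAJB9, a J-domain partner of HSPA5 that restrains IRE1, was at 25.3, 27.6 and 27.3 CPM against 21.9, 20.6 and 24.1 CPM (-0.32 ± 0.09, adjusted p = 0.0237). SPCS3, a subunit of signal peptidase, was at 128, 120 and 120 CPM against 116, 113 and 111 CPM (-0.17 ± 0.05, adjusted p = 0.0422). In these 4 genes, too, the knockdown libraries were all below the control libraries. HSP90B1, DNAJB9, PDIA3 and CALR overlap a gene on the opposite strand, whose reads cannot be told apart from theirs without strand, and HSPA5 had fractional counts, as reads shared between alignments or genes give, in all 12 libraries. Leaving out 1 library reduced the 7 calls to 3 without siControl Input replicate 3, to 4 without siIGF2BP3 Input replicate 3, and to 4 (3 lower, and HERPUD1 higher) without siControl Input replicate 2, and gave 10 without siControl Input replicate 1.

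By role, the sign was the same within each group of chaperones. All 8 genes of the Hsp70 and Hsp90 system, all 4 disulfide isomerases, both lectin chaperones and both secreted stress proteins had a negative Input estimate, with role medians from -0.15 to -0.21. Among these, the estimates of DNAJC10 (-0.04 ± 0.05) and SDF2L1 (-0.05 ± 0.11) were smaller than their SE, so their sign is uncertain. All 5 translocon genes were negative as well (-0.03 to -0.10), as were 3 of 4 signal peptidase and 2 of 4 TRAP genes. Of the 6 degradation genes tested 4 were positive, and of the sensors with XBP1 only ATF6 was negative (-0.16 ± 0.06, adjusted p = 0.148). None of the 4 genes for sensors and XBP1, the 6 degradation genes, the 2 secreted stress proteins, the 5 translocon genes or the 4 TRAP genes was called by edgeR or DESeq2. At an unadjusted p under 0.05, edgeR had 1, 1, 2, 1 and 1 of them in that order. In CPM, 12 of the 39 genes had all 3 siIGF2BP3 Input libraries below all siControl libraries, against 5.73% of all genes tested, and 3 (HERPUD1, XBP1 and EIF2AK3) had them all above, against 19.2%. XBP1, the transcription factor that IRE1 activates by splicing, was at 165, 160 and 159 CPM against 171, 166 and 171 CPM. Counts per gene do not distinguish spliced from unspliced XBP1.

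The 12 hepatocyte markers moved with the chaperones in Input. They summed to between 60326 and 61146 CPM in siControl and between 55579 and 55684 CPM in siIGF2BP3. Of the 12, 6 fell and 0 rose (median -0.15), against 1.9% of all genes lower and 4.05% higher, the largest falls being those of APOA1 (-0.29 ± 0.04, adjusted p = 8.81e-05), TF (-0.29 ± 0.05, adjusted p = 0.000362) and SERPINA1 (-0.26 ± 0.05, adjusted p = 0.00171), all genes for secreted plasma proteins. Their part in the chaperone result was not tested. In bulk RNA, fewer cells with an extensive ER and less RNA per cell cannot be told apart. Among the genes with a promoter entry, the 10 with either ER stress element had a median Input change of -0.16, with 3 called lower. The 26 with neither had a median of -0.08, also with 3 called lower, against 1.9% of all genes.

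**Figure D1:**
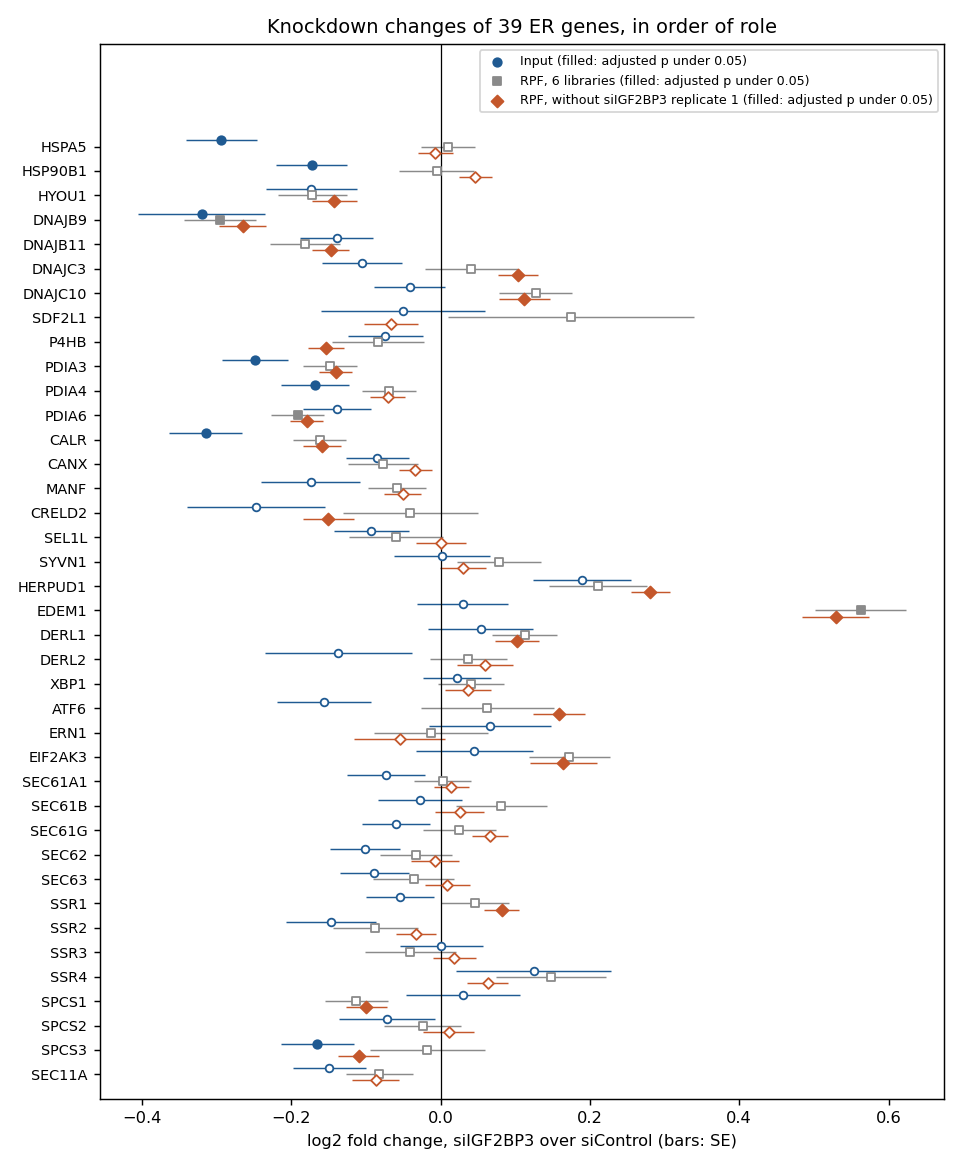
Log2 fold change, siIGF2BP3 over siControl, of the 39 genes tested, ordered by role from chaperones (top) to signal peptidase (bottom), in Input, in RPF with all 6 libraries and in RPF without siIGF2BP3 replicate 1. Bars are SE and filled markers passed an adjusted p of 0.05: 7 in Input, all lower, 3 in RPF and 18 in RPF without that library.

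In the footprints, with all 6 RPF libraries, 1 gene rose and 2 fell, against a background of 1.66% of 20192 genes called (1.02% higher and 0.649% lower). EDEM1 (ENSG00000134109, chr3:5187646-5219957, plus strand), a mannosidase-like factor that passes misfolded glycoproteins to degradation, rose, and DNAJB9 and PDIA6 fell. The median log2 fold change was -0.02, against 0.01 over all genes. None of these 3 calls was kept under all 15 alternative settings. With siControl RPF replicates 2 and 3 summed, edgeR called 0 (9 genes at an unadjusted p under 0.05), and DESeq2 on all 6 libraries called 5. Leaving out any 1 siControl RPF library, or siIGF2BP3 RPF replicate 2, also gave 0 calls by edgeR, with 8 to 10 genes at an unadjusted p under 0.05, and leaving out siIGF2BP3 replicate 3 kept EDEM1 alone.

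EDEM1 footprints measured 20.4, 19.7 and 21.2 CPM under siControl, against 30.6, 29.5 and 29.5 CPM under siIGF2BP3. The rise was present in each knockdown library, replicate 1 included, and the groups were far apart relative to their spread (0.56 ± 0.06, adjusted p = 0.00791, 1.48-fold). Its transcripts overlapped between conditions, at 55.1, 56.2 and 55.9 CPM in siControl Input and 56.8, 56.2 and 63.8 CPM in siIGF2BP3 Input. The adjusted p of the EDEM1 footprint change lay between 1.75e-07 and 0.0981 over the 15 alternatives, and the estimate between 0.53 and 0.59. DNAJB9 footprints were at 69.9, 68.9 and 70.1 CPM against 52.1, 57.6 and 58.5 CPM (-0.30 ± 0.05, adjusted p = 0.0316), all lower after knockdown as in Input. PDIA6, an abundant disulfide isomerase that also acts on the sensors, measured 1603, 1594 and 1616 CPM in control RPF libraries, against 1328, 1408 and 1432 CPM in knockdown RPF libraries. Its knockdown libraries were all lower (-0.19 ± 0.04, adjusted p = 0.0473), and its Input libraries, at 544, 604 and 569 CPM against 528, 533 and 551 CPM, overlapped.

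Without siIGF2BP3 RPF replicate 1, which left 2 knockdown libraries, 18 of the 39 genes were called, against 16.5% of 20615 genes (7.97% higher and 8.57% lower). Of these 10 were lower: DNAJB9 (-0.26), PDIA6 (-0.18), CALR (-0.16), P4HB (-0.15), CRELD2 (-0.15), DNAJB11 (-0.15), HYOU1 (-0.14), PDIA3 (-0.14), SPCS3 (-0.11) and SPCS1 (-0.10). The lower set holds 3 of the 4 disulfide isomerases and DNAJB11, HYOU1 and DNAJB9, which are partners or nucleotide exchange factors of HSPA5. The Hsp70 and Hsp90 system did not move as one, since DNAJC3 and DNAJC10 were called higher and HSPA5, HSP90B1 and SDF2L1 were not called. The 8 higher genes were EDEM1 (0.53), HERPUD1 (0.28), EIF2AK3 (0.16), ATF6 (0.16), DNAJC10 (0.11), DNAJC3 (0.10), DERL1 (0.10) and SSR1 (0.08). They include 3 of the 6 tested degradation genes and the sensors PERK and ATF6. With siControl replicates 2 and 3 summed as well, 14 were called (9 lower and 5 higher), against 14.5% of all genes (7.08% higher and 7.4% lower).

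HERPUD1, which organises the degradation complex around the ligase SYVN1, shows how far that library mattered. Its footprints measured 198, 199 and 199 CPM in control RPF libraries, against 199, 245 and 238 CPM in knockdown RPF libraries, so that replicate 1 alone lay among the controls. The log2 fold change was 0.21 ± 0.07 with it (adjusted p = 0.168) and 0.28 ± 0.03 without it (adjusted p = 7.99e-05). Its transcripts measured 70.6, 87.5 and 73.9 CPM in control Input libraries, against 87.8, 93.5 and 92.7 CPM in knockdown Input libraries, where the groups were separate by a small margin. SDF2L1, an HSPA5 cofactor, showed the opposite pattern, with footprints at 145, 134 and 134 CPM against 196, 135 and 129 CPM, only replicate 1 being high. HERPUD1 and SDF2L1 were chosen here after their values were seen. Over all 39 genes, 12 had all siIGF2BP3 RPF libraries below all siControl libraries (background 14.8%) and 5 had them above (background 10.9%).

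**Figure D2:**
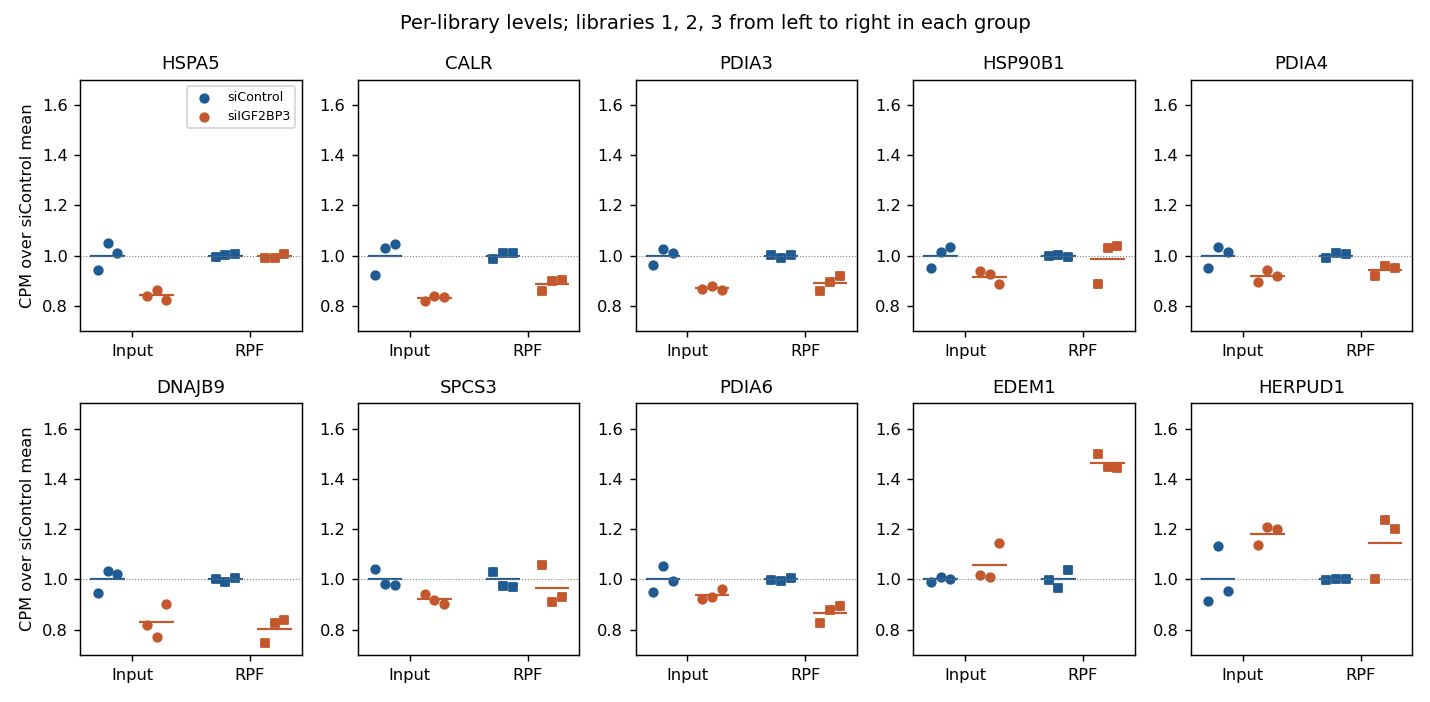
CPM of 10 genes in each library, divided by the siControl mean of the same assay (circles Input, squares RPF; lines are group means, with siControl RPF replicates 2 and 3 counted as 1). Input of HSPA5, CALR and PDIA3 sits lower in all 3 siIGF2BP3 libraries, EDEM1 is raised in RPF alone, and in RPF the first siIGF2BP3 library of HSP90B1, SPCS3 and HERPUD1 lies apart from the other two.

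Over the 39 genes, the Input and RPF changes, which come from different libraries, had a Pearson r of 0.62 and a Spearman rho of 0.63. Over 13381 genes with both changes, low-count genes included, r was 0.12, and no set of genes matched in level was compared. Genes are not independent replicates, so these are descriptions, and without siIGF2BP3 RPF replicate 1 the value over the ER genes was 0.60. HSPA5 was among the genes that departed from this relation. Its footprints, at 4496, 4545 and 4555 CPM in siControl and 4487, 4485 and 4558 CPM in siIGF2BP3, overlapped (0.01 ± 0.04) while its transcripts fell.

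The change of footprints relative to transcripts, the translation efficiency (TE), was tested as an interaction term (assay by knockdown) fitted to the 12 libraries together. It was higher for 2 of the 39 genes and lower for 0, against 2.21% of 13395 genes called, 0.791% higher and 1.42% lower. EDEM1 rose by 0.53 ± 0.09 (adjusted p = 0.00355), where footprints rose over a level transcript. HSPA5 rose by 0.30 ± 0.07 (adjusted p = 0.0191), where footprints stayed level over a falling transcript. EDEM1 was called in 22 of 23 alternatives and HSPA5 in 16. HSPA5 was lost without siControl Input replicate 3 or siIGF2BP3 Input replicate 3, with any siControl RPF library left out, with siControl RPF replicates 2 and 3 summed, and with limma, which called neither gene.

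The estimated TE change was positive for 33 of the 39 genes, with a median of 0.07, against 50.7% positive and a median of 0.00 over all genes. With limma on log2 ratios the medians were 0.01 and -0.06. By edgeR, related lists leaned the same way in part. The estimate was positive for 11 of 12 hepatocyte markers (median 0.10) and 17 of 25 other degradation genes (0.07). It was positive for 8 of 11 oligosaccharyltransferase genes (0.05) and 6 of 8 genes for the signal recognition particle and its receptor (0.10). Of 31 other folding factors 16 were positive (0.04), and of 13 cytosolic heat shock genes 5 (-0.02). All 6 degradation genes and all 5 translocon genes had a positive estimate, from 0.02 to 0.53 and from 0.05 to 0.11, and apart from EDEM1 none of these 11 was called or passed an unadjusted p under 0.05 (edgeR). Without siIGF2BP3 RPF replicate 1, 5 genes were called higher (9.99% of all genes called, 4.41% higher and 5.58% lower), with ATF6 (0.32 ± 0.07, adjusted p = 0.0032), HSP90B1 (0.23 ± 0.06, adjusted p = 0.009) and DNAJC3 (0.21 ± 0.06, adjusted p = 0.0314) joining EDEM1 (0.51) and HSPA5 (0.29). With siControl RPF replicates 2 and 3 summed as well, DNAJC3 was lost and 4 genes were called higher (7.99% of all genes called, 3.36% higher and 4.63% lower). ATF6, a membrane-bound transcription factor that is cleaved under stress, had footprints of 57.5, 54.7 and 54.8 CPM in siControl and of 47.4, 60.9 and 63.8 CPM in siIGF2BP3, with replicate 1 lowest of all. DNAJC3, which inhibits PERK, likewise had 188, 184 and 178 CPM against 164, 196 and 198 CPM.

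Apart from the knockdown, the ER genes differed widely in how many footprints they carried for their transcripts. In siControl cells the log2 ratio of RPF to Input was above the test threshold for 32 of 39 genes, below it for 6 and not called for SEC61G alone, where 89.9% of 12858 genes were called (45.1% higher and 44.8% lower). The median ratio was 0.84 on the log2 scale, against 0.00 over all genes passing the filter. With no filter on low counts these medians were 0.77 and 0.60, so the distance to all genes depends on which genes are counted. High ratios were not particular to these genes. The siControl median was 1.66 for oligosaccharyltransferase genes (11 of 11 called higher), 0.81 for ER membrane insertion genes (17 of 22) and 0.69 for hepatocyte markers (8 of 12). It was 0.04 for the PERK and ATF4 branch (7 of 17) and -0.18 for cytosolic heat shock genes (6 of 13). In siIGF2BP3 cells 33 of the 39 ER genes were higher and 6 lower (85.2% of all genes called, 43.2% higher and 41.9% lower), with a median of 1.02 against 0.02. The 2 sets of ratios share no library and had a Pearson r of 0.996 over the 39 genes (0.989 over 12676 genes), so the order of the genes was nearly the same in both conditions.

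The 4 highest ratios belonged to SDF2L1, SSR4, HYOU1 and MANF. SDF2L1 had 14.1, 13.2 and 11.3 CPM in siControl Input, compared with 145, 134 and 134 CPM in siControl RPF, a log2 ratio of 3.58 ± 0.06 (SE). SSR4, the delta subunit of the TRAP complex that assists translocation, was at 21.3, 16.2 and 18.5 CPM against 174, 168 and 175 CPM (3.37 ± 0.06). HYOU1, the Grp170 exchange factor of HSPA5, was at 90.6, 85.8 and 94.1 CPM against 713, 748 and 740 CPM (3.18 ± 0.04). MANF, a small secreted protein that binds HSPA5, was at 47.1, 51.6 and 52.1 CPM against 327, 322 and 325 CPM (2.85 ± 0.04). In all 4 the RPF level exceeded the Input level in each library, and the siIGF2BP3 ratios were 3.83, 3.43, 3.22 and 3.0 in the same order.

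The lowest ratios belonged to the translocon partners SEC62 and SEC63 and to 2 quality control genes. SEC62, which serves substrates that enter the ER after their synthesis, was at 533, 503 and 554 CPM in Input and at 84.9, 85.9 and 84.0 CPM in RPF (-2.48 ± 0.04). SEC63, a J-domain protein of the same complex, was at 346, 357 and 345 CPM against 124, 120 and 118 CPM (-1.38 ± 0.03). EDEM1 stood at -1.29 ± 0.05 in siControl and at -0.72 ± 0.08 in siIGF2BP3. DNAJC10, a reductase that assists degradation, was at 336, 308 and 298 CPM against 136, 129 and 124 CPM (-1.12 ± 0.04). ERN1 and SEC11A were also lower in RPF than in Input (-0.90 ± 0.08 and -0.59 ± 0.04). Membership of the Sec61 group therefore set no common level, since SEC61A1, the pore subunit, stood at 2.63 ± 0.04 and SEC61G at 0.04 ± 0.03.

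The ratio of RPF to Input also varied with gene length and coding share. Over the 39 genes the siControl ratio had an r of 0.43 with the coding share of the canonical transcript (0.18 over 11516 genes) and of -0.43 with log2 exon length (-0.33 over 12844 genes). SEC62, SSR1 and SPCS1 have coding shares of 18.3%, 8.88% and 8.08%. Their siControl ratios were -2.48, 0.51 and 2.04, so a low coding share did not always go with a low ratio. The promoter groups differed in this readout as well, with a median ratio of 1.58 for the 10 genes with either ER stress element and 0.60 for the 26 with neither, given without a test.

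**Figure D3:**
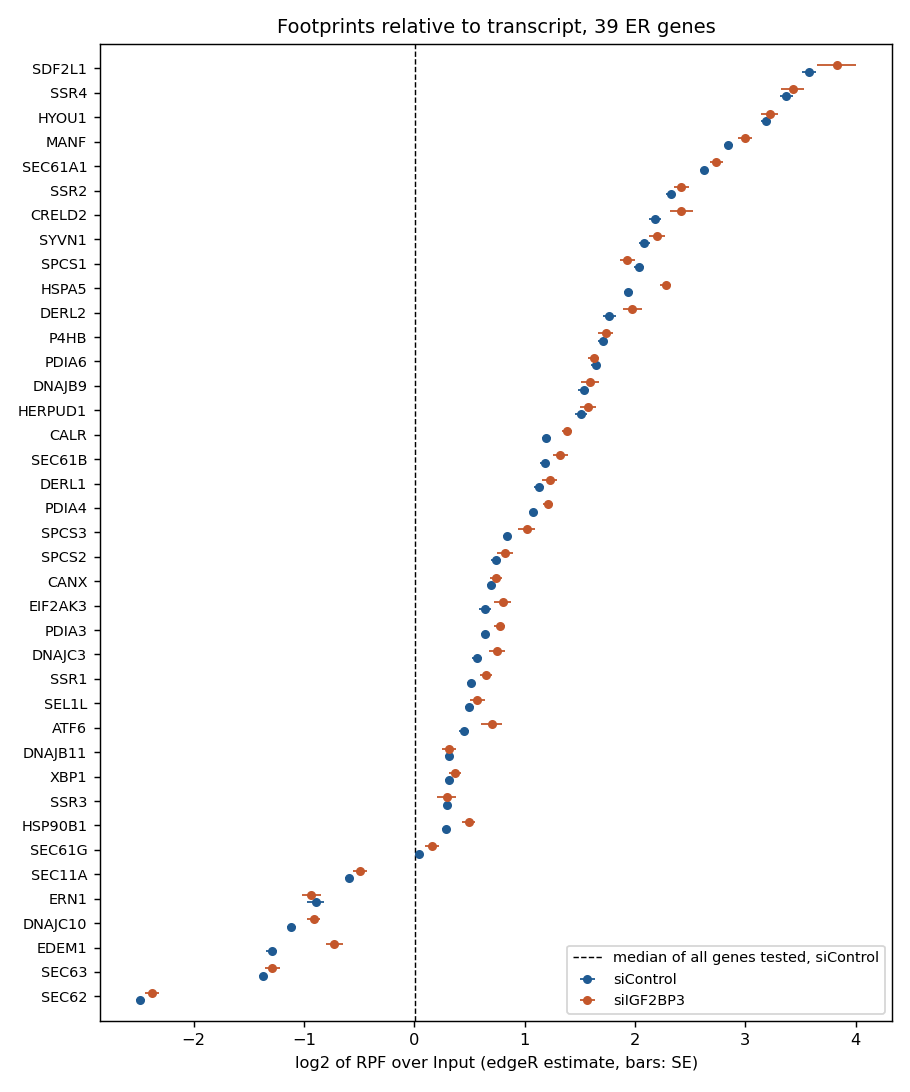
Log2 ratio of RPF to Input for the 39 genes in siControl and siIGF2BP3 cells, sorted by the siControl value; bars are SE and the dashed line is the median of all genes tested in siControl, 0.00. The ratios run from -2.48 for SEC62 to 3.58 for SDF2L1, with EDEM1 and HSPA5 showing wide gaps between conditions.

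Levels can be compared between genes only per length, here as RPF CPM per kilobase of coding sequence in siControl cells (mean ± SD, n = 2). CALR (2305 ± 37.8) and HSPA5 (2305 ± 19.4) were highest and did not differ beyond their spread. P4HB (1638 ± 18.9), HSP90B1 (1238 ± 1.08) and PDIA6 (1215 ± 0.886) followed. An SD of these 2 values, replicate 1 and the mean of replicates 2 and 3, can fall well below the spread of the libraries. HSP90B1 in siControl RPF was at 2983, 2997 and 2963 CPM before division by length, with an SD of 2.60 CPM over the 2 values. The order of HSP90B1 and PDIA6 was therefore not judged by their SDs. The sensors were at the other end, with ATF6 at 27.9 ± 0.964, PERK's gene EIF2AK3 at 10.9 ± 0.632 and IRE1's gene ERN1 at 5.17 ± 0.239. DERL3 was at 0 CPM in every RPF library. All other members lay between CALR and ERN1, EDEM1 being the lowest of them that is no sensor at 10.4 ± 0.0292 in siControl and 15.2 ± 0.325 (n = 3) in siIGF2BP3. PERK's gene and EDEM1 differed by less than the SD of the former in siControl.

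In the Sec61 channel and signal peptidase, subunits lay closer together in footprints per coding length than in transcripts per length. Of the Sec61 channel, SEC61A1, SEC61B and SEC61G had 365 ± 2.87, 482 ± 18.9 and 867 ± 15.6 RPF CPM per kilobase of coding sequence, a 2.38-fold range. Their Input levels per kilobase of canonical transcript, 26.4 ± 0.882, 120 ± 6.0 and 449 ± 11.5 CPM (n = 3), spanned 17.1-fold. In signal peptidase, the RPF range was 3.70-fold (SPCS2 lowest, SPCS3 highest) and the Input range 20.1-fold (SPCS1 lowest, SEC11A highest). In the TRAP complex the RPF and Input ranges were 1.79-fold and 1.69-fold. With Input divided by the counted exon length of the gene in place of the canonical transcript, the Input ranges became 5.18-fold, 5.30-fold and 11.7-fold for the Sec61 channel, signal peptidase and TRAP, so the size of the Input range depends on the transcript model. SEC62 and SEC63, at 70.9 ± 0.0281 and 53.3 ± 1.39 RPF CPM per kilobase, were well below the 3 channel subunits. The ranges in siIGF2BP3 were similar, at 2.41-fold, 3.67-fold and 1.67-fold in RPF.

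**Figure D4:**
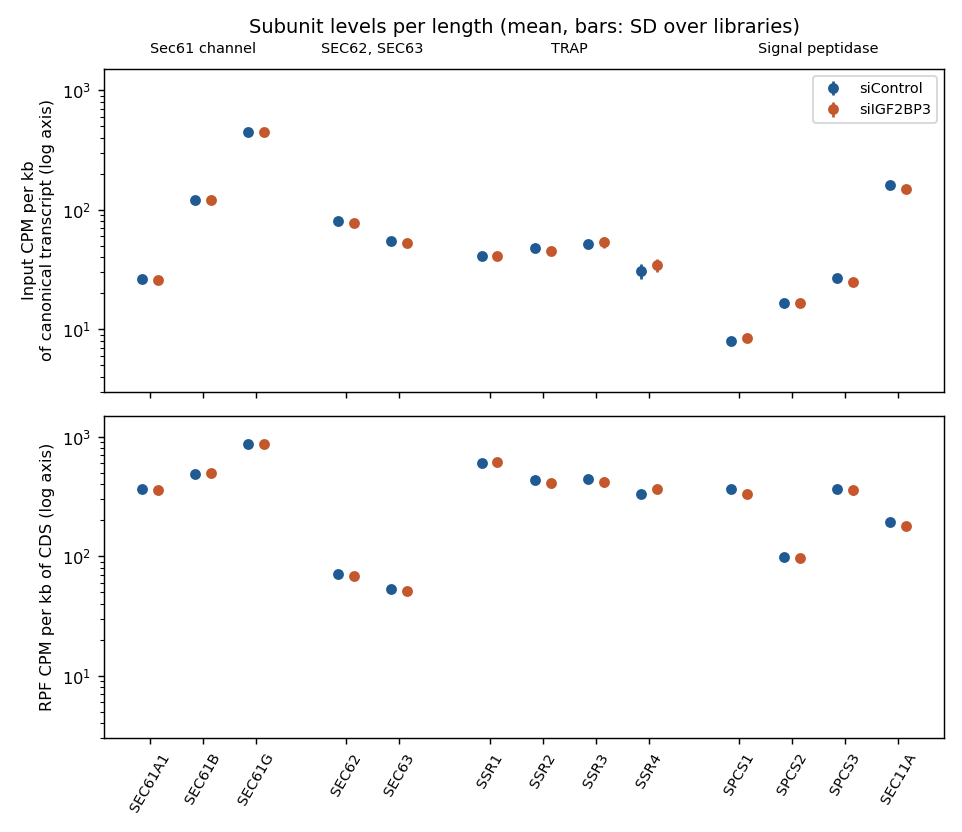
Levels of translocon, TRAP and signal peptidase subunits in siControl and siIGF2BP3 cells: Input CPM per kilobase of canonical transcript (upper panel) and RPF CPM per kilobase of coding sequence (lower panel), both on log axes; points are means and bars SD (n = 3 libraries; n = 2 for siControl RPF). SEC61A1, SEC61B and SEC61G span 17.1-fold in the upper panel and 2.38-fold in the lower, and the conditions nearly coincide.

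In the related lists, the share of tested genes called in Input ran from 0% for the PERK and ATF4 branch to 38.5% for cytosolic heat shock genes, against 5.96% of all genes. Of 31 other ER folding factors, 3 fell and 1 rose in Input (median -0.07), with the largest changes in SIL1, an exchange factor of HSPA5 (-0.26 ± 0.07, adjusted p = 0.0276), PRKCSH, the beta subunit of glucosidase II (-0.20 ± 0.05, adjusted p = 0.0146), and the collagen chaperone FKBP10, the riser (0.23 ± 0.05, adjusted p = 0.00232). Of 25 other degradation genes, the lectin OS9 fell (-0.28 ± 0.06, adjusted p = 0.00458) and the ubiquitin-conjugating enzyme UBE2G2 rose (0.25 ± 0.05, adjusted p = 0.00348). UBE2G2 rose in RPF too, from 30.6, 31.9 and 31.1 CPM to 40.8, 39.4 and 38.4 CPM (0.36 ± 0.06, adjusted p = 0.0333). In the targeting and insertion machinery, STT3A fell among 11 tested oligosaccharyltransferase genes (-0.20 ± 0.05, adjusted p = 0.00871), SRP14 and SRP72 fell among 8 genes for the signal recognition particle and its receptor (both -0.17), and of 22 insertion genes EMC7 fell (-0.26 ± 0.08, adjusted p = 0.042) and EMC8 rose (0.25 ± 0.06, adjusted p = 0.0199).

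The branch of PERK and ATF4 showed no call in Input among 17 tested genes by edgeR, where 1 passed an unadjusted p under 0.05, and its median was 0.02. In RPF the cystine transporter gene SLC7A11, an ATF4 target, rose from between 43.8 and 44.2 CPM to 52.4, 64.1 and 62.6 CPM (0.46 ± 0.07, adjusted p = 0.0224), and its TE estimate was 0.41 ± 0.09 (adjusted p = 0.0218). Its Input libraries overlapped. None of 15 genes for response proteases and other ER factors was called in Input, where 2 passed an unadjusted p under 0.05. Cytosolic heat shock genes, included as the chaperones of another compartment, moved both ways: of 13, 3 rose and 2 fell in Input. HSPA1A measured 114, 148 and 140 CPM in control Input libraries, against 223, 223 and 224 CPM in knockdown Input libraries (0.69 ± 0.07, adjusted p = 7.04e-06), its near-identical copy HSPA1B rose alike (0.69 ± 0.08, adjusted p = 5.07e-05), and DNAJB1, their J-domain partner, rose by 0.48 ± 0.05 (adjusted p = 7.04e-06). With all 6 RPF libraries edgeR called no cytosolic heat shock gene, where 2 of 13 passed an unadjusted p under 0.05, and without siIGF2BP3 replicate 1 it called DNAJB1 higher (0.18 ± 0.03, adjusted p = 0.00394).

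In the footprints of these related lists, edgeR called UBE2G2 and SLC7A11 with all 6 RPF libraries, and more without siIGF2BP3 replicate 1, where 16.5% of all genes were called. Of the 31 other folding factors 10 were then lower and 0 higher (8.57% and 7.97% of all genes), with the largest falls in SERP1, a translocon-associated stress protein (-0.21), FKBP9 (-0.18) and ERP29 (-0.16). FKBP10, which rose in Input, was among the 10 (-0.13). Of 25 other degradation genes 3 were higher and 3 lower, UBE2G2 (0.32) and OS9 (-0.16) among them with the sign they had in Input. STT3A (0.07) and SRP72 (0.13) were called higher in these footprints, where their transcripts had fallen. Of 17 genes of the PERK and ATF4 branch 3 were higher and 4 lower, with SLC7A11 at 0.52, ASNS, encoding asparagine synthetase, at 0.16, and NUPR1, a stress-induced regulator, at -0.32. Of 15 response proteases and other ER factors 2 were higher and 3 lower, the higher pair being MBTPS1 (0.20) and MBTPS2 (0.24), which encode the proteases that cleave ATF6. These genes were chosen after their values were seen.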

How the data were processed

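HepG2 Input and RPF libraries (3 per group) were grouped by their labels. How Input libraries were prepared, and whether replicates were separate cultures, are not given in the sources used here, so p-values measure a spread between libraries that may be technical. The authors used cutadapt for trimming, STAR for alignment (hg38) and featureCounts for gene counts (versions and strand options not given in the sources used here). The deposited values are estimated counts, partly fractional where reads were shared between alignments or genes; HSPA5 and SPCS2 had fractional counts in all 12 libraries, and 15 of the 40 genes overlap another gene with a mean of at least 1 CPM, so these are uncertain. Counts were rounded (at most 0.0445% of a library) and named through GENCODE 44 (99.2% matched). Tests used edgeR 4.0.16 in R 4.3.3 (filterByExpr, TMM, robust quasi-likelihood, Benjamini-Hochberg, threshold 0.05) on all genes: siIGF2BP3 against siControl in Input and in RPF, their interaction (TE), and RPF against Input per condition. CPM values are unscaled by TMM. Alternatives were DESeq2 1.42.0, limma 3.58.1 (for TE, with 0.5 CPM added), other scaling factors, no low-count filter or one at a mean of 5 CPM, only protein-coding genes, the replicate block, summed near-identical libraries and each library left out. For limma, RPF and Input were matched by replicate number, a pairing that is not known to hold, and CPM were unscaled by TMM. The tests were run on simulated independent libraries of equal spread, with changes larger than any knockdown change of the ER genes. That check does not cover the uneven spread of the RPF libraries or small changes. All 40 genes are named; per-library values and tests are given for genes called in a knockdown comparison, for the 4 highest and 4 lowest ratios, and for at most 3 genes of each further list. The members and lists were chosen with earlier results of these data known.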

Additional observations from a re-analysis of the deposited data

Results flagged for a closer look

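For HSPA5 the knockdown changed footprints and transcripts to different degrees: the difference between the RPF and Input changes was 0.30 on the log2 scale (edgeR interaction test, adjusted p = 0.0191). For EDEM1 the same difference was 0.53 (adjusted p = 0.00355), with footprints higher in 3 of 3 siIGF2BP3 libraries. The HSPA5 difference was called in 16 of 23 alternatives and lost in the others, among them limma, any siControl RPF library left out, and siControl RPF replicates 2 and 3 summed. The EDEM1 difference was called in 22 of 23 and lost with limma. The limma setting matched Input to RPF by replicate number and used CPM unscaled by TMM.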

How the results depend on the processing

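The count of ER genes called in Input was 7 and stayed within 7 to 9 under other tools, scalings and filters; leaving out 1 library gave 3 to 10. In RPF the count was 3, with 5 by DESeq2, 1 with the replicate block, 0 with siControl RPF replicates 2 and 3 summed (edgeR; 9 genes at an unadjusted p under 0.05), 0 to 18 on leaving out 1 library, and 14 with the summed libraries and siIGF2BP3 RPF replicate 1 left out together, a setting chosen after seeing the data. Over all genes the RPF calls ran from 11 to 3410. For TE the count was 2, with 1 for the summed libraries, 0 by limma (2 genes at an unadjusted p under 0.05; edgeR and DESeq2 2), 4 for the setting chosen after seeing the data, and 1 to 5 on leaving out 1 library. The ratios of RPF to Input gave 38 calls in siControl and 36 to 39 in siIGF2BP3 throughout. The cause was not tested in any of these. Whether the replicate numbers pair the samples cannot be decided with 3 libraries per group. The correlation of same-numbered deviations was -0.0185 to 0.017 between Input groups and 0.0336 to 0.115 between RPF groups. Between Input and RPF it was 0.0029 to 0.0206 in siControl and -0.133 to -0.0572 in siIGF2BP3. The replicate block gave 8 calls in Input (HERPUD1 joining), 2 for TE and 38 for both ratios. No direction reversed in the 398 recomputed values of single called genes, of which 350 kept their side of the threshold and 48 lost the call. The kept values include 112 in siControl and 104 in siIGF2BP3 for the 4 highest and 4 lowest ratios of RPF to Input, which lay far from the threshold. Of the knockdown calls, 74 values were kept and 17 lost in Input. In RPF 22 were kept and 23 lost, and for TE 38 and 8.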
